A study of Mus musculus with 2 samples.

Results

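The ABC efflux transporters of haematopoietic stem cells (HSCs) were followed in fetal and adult HSCs as 9 genes chosen by name: Abcg2, Abcb1a, Abcb1b, Abcc1, Abcc4, Abcc5, Abca1, Abcg1 and Abcb10. Of these, 8 were matched by Ensembl identifier in each of the 2 deposited tables, out of 37820 genes in the gene table and 28009 gene sums in the transcript table, and Abcb10 was not analysed here. Adult HSCs (2 samples) had been sorted from bone marrow; the mice were of the B6129SF1 strain and 6 to 8 weeks of age. The fetal HSCs came from liver dissected at embryonic day 14.5, per the labels' protocol. Fetal samples as such were not analysed here, and how the cells were gated and how many mice made up a sample were not stated in the labels. Both tables give 1 value per feature under FL, for fetal liver, and 1 under BM, for bone marrow, as FPKM (mapped fragments scaled by feature length and by library total), with no treatment in either group named in the labels. No column carries replicates, so no test and no error could be given, the depth is unknown, and every "higher" or "lower" below describes these columns only.

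ATP-binding cassette (ABC) transporters use ATP to move molecules across membranes. In HSCs the drug exporter Abcg2 pumps out the Hoechst dye, which gives the "side population" by which stem cells have long been isolated, and the P-glycoproteins Abcb1a and Abcb1b expel the dye rhodamine. Members of the Abcc subfamily export glutathione conjugates, other organic anions and cyclic nucleotides, and Abca1 and Abcg1 hand cholesterol to lipoprotein particles under control of the liver X receptors. Abcb10 is a mitochondrial transporter linked to haem synthesis in red cell precursors.

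Mouse Abcg2 is known to have alternative first exons with their own promoters, so the 250 bases upstream of its annotated start sites are shown, since the transcript values separate these starts. RefSeq (build GRCm38.p6, a later build than that of the tables) lists 3 of them on the plus strand, with windows at chr6:58584283-58584532, chr6:58596422-58596671 and chr6:58640296-58640545; the second and the third start lie 12.1 and 56.0 kb downstream of the first. The window of Abcb1b, the member with a large difference between columns and a start close to its measured transcript, is at chr5:8797897-8798146, also on the plus strand. Capitals mark matches to the GC box GGGCGG, the CCAAT box CCAAT and the hypoxia response core ACGTG, on either strand.
Abcg2 start 1: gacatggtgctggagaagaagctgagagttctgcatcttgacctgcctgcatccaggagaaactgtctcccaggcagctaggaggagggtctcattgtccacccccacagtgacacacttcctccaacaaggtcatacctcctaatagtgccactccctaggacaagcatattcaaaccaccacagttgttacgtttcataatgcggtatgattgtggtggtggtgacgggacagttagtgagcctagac
Abcg2 start 2: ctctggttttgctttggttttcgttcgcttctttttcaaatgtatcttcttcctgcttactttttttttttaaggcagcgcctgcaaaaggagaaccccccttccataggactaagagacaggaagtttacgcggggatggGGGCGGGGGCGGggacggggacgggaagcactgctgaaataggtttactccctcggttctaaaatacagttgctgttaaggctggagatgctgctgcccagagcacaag
Abcg2 start 3: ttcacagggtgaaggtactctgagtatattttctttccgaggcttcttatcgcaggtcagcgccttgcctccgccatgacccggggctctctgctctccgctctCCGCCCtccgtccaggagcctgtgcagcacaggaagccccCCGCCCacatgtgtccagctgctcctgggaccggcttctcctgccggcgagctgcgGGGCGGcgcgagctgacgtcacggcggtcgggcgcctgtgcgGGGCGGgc
Abcb1b start: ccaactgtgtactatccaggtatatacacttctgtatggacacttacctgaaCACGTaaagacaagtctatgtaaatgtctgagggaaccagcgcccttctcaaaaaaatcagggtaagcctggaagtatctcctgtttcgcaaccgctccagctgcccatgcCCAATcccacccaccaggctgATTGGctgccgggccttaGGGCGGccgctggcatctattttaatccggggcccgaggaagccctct

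The GC box was matched at 0 places in the first Abcg2 window, 2 in the second and 4 in the third, and at 1 place in the Abcb1b window. Over all 32851 promoter windows of the same length, 32.7% held this motif. The Abcb1b window also held 2 CCAAT boxes (in 33.8% of all windows) and 1 hypoxia core (in 16.6%; the core lies within the E-box CACGTG wherever that occurs). CpG dinucleotides numbered 3, 10 and 23 in the Abcg2 windows and 9 in that of Abcb1b, against a median of 6 over all windows. TATAAA (12.4% of all windows), CACGTG (6.02%), the GATA motif AGATAA (9.99%) and the antioxidant core TGACNNNGC (10.2%) had no match in these 4 windows. These are matches of letters and describe the windows only. The RefSeq window of Abcb1a lies 92986 bases upstream of the start of its measured coding transcript and is not shown.

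The columns of the tables did not pair by header, and the members showed this too. Abcg2 stood at 30.5 FPKM under BM of the gene table and at 29.3 under FL of the transcript table, but at 54.0 under BM of the latter. Of 6 members at 1 FPKM or more in both, 5 lay within 10% between BM of the gene table and FL of the transcript table, as did 75.7% of 11077 genes; between the columns headed BM it was 1 of 6 members and 16.6% of genes. The exception in the first pairing was Abcc1, at 24.8 FPKM in the gene table and 14.7 FPKM as a transcript sum, a ratio of 1.69. At least 1 of these headers is therefore in doubt, and the match alone does not show in which table. The hepatocyte marker gene Alb was at 6.46 FPKM under FL and 0.019 under BM of the transcript table. In the gene table it was at 0.381 FPKM under FL and 6.74 under BM. The 8 hepatocyte markers summed to 41.6 and 13.3 FPKM in the transcript table and to 55.6 and 42.6 FPKM in the gene table. Whether BM of the gene table stands for adult marrow is therefore not known. The direction of every ratio below rests on the headers of its own table. The tables are described apart, since their normalisation may differ. In the FL column of the gene table, markers of endothelium and stroma were high: the 10 endothelial markers summed to 3300 FPKM there and to 341 FPKM in its BM column, and the 10 stromal markers to 842 and 11.8 FPKM, with Dcn and Lum at 0 in BM. HSC genes were present in every column, from 35.5 FPKM (FL, gene table) to 181 FPKM (BM, transcript table) for the stem cell factor receptor gene Kit.

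**Figure D1:**
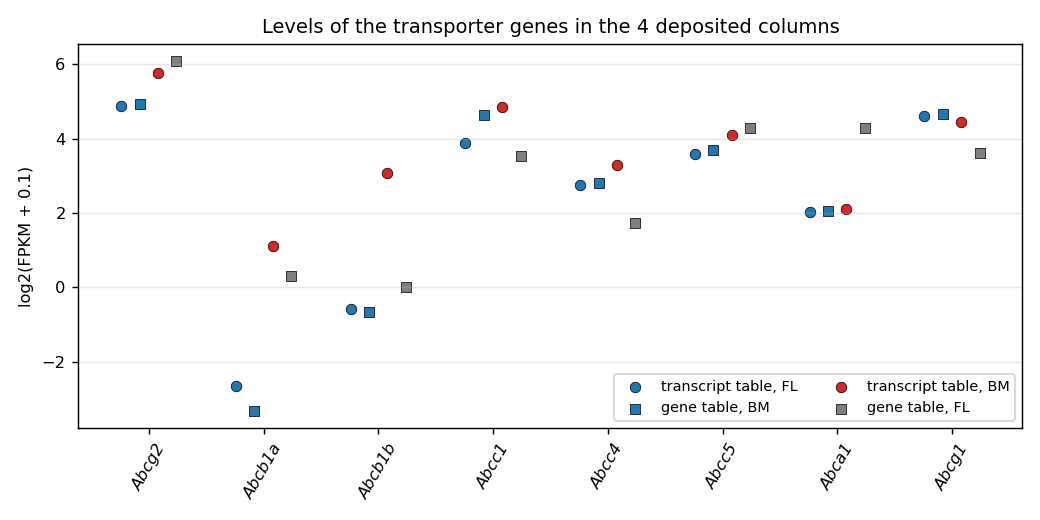
Levels of the 8 measured transporter genes in the 4 deposited columns, as log2(FPKM + 0.1) on the vertical axis, 1 point a column (circles, transcript table summed per gene; squares, gene table). Blue circles and blue squares, the columns FL of the transcript table and BM of the gene table, lie close together for most genes; Abcb1a is listed at 0 in the latter.

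In the transcript table, the P-glycoprotein genes stood apart from the other transporters. Abcb1b was at 0.569 FPKM under FL and 8.35 under BM, a ratio of 14.7. Abcb1a was at 0.0588 and 2.08 FPKM, a ratio of 35.3 against a level close to 0. The relative log2 ratio, log2((BM + 0.1)/(FL + 0.1)) minus its median over genes that reached 1 FPKM under FL and BM alike (0.01), was 3.65 for Abcb1b and 3.77 for Abcb1a; the added 0.1 FPKM makes it understate the difference of such low genes. These were the 2 of 8 members at least 2-fold higher in BM, and 0 were at least 2-fold lower. Among all 12220 genes at 1 FPKM or more in either column, called expressed here, 13.3% were higher by that measure and 8.82% lower. The members' median was 0.71, beside 0.02 for all expressed genes. With each column scaled to its total without ribosomal protein and mitochondrial genes, 4 members were at least 2-fold higher. Under that scaling 2190 of all expressed genes were higher and 840 lower, in place of 1621 and 1078. Markers of other cells moved in the same comparison: summed levels went from 620 FPKM under FL to 38.5 under BM for 9 erythroid markers, from 267 to 7.06 for 10 macrophage markers, from 612 to 208 for 10 neutrophil and monocyte markers and from 321 to 183 for 10 endothelial markers, and from 217 to 918 for 8 megakaryocyte markers. Of these markers only Alas2, under BM, was listed at 0, and the part of such cells in the transporter values was not tested.

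The P-glycoprotein values rest on transcripts that are partly alike. Of the 75-base words of the main Abcb1a transcript, 12.7% also occur in transcripts of other genes, and for Abcb1b 13.4%, mostly in each other; for the main transcripts of the other 6 members it was 0%. The division of reads between the 2 genes is therefore uncertain, and their relation to Abcb4, the bile phospholipid transporter gene that shares a few of these words, likewise. GENCODE also places a gene model on the opposite strand over exons of each (Gm42686 for Abcb1a, Gm5106 for Abcb1b), and whether counting used strand was not stated in the labels. Abcb4 was at 14.6 FPKM under FL and 10.9 under BM of the transcript table. The gene table column that matches this FL column had Abcb4 at 21.3 FPKM. Whether reads were assigned to the wrong one of these genes was not tested. In the protein-coding transcript of Abcb1a alone, the values were 0.0335 FPKM under FL and 1.77 under BM, while Abcb1b had 1 measured transcript of 9 annotated.

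Abcg2 was the most abundant member in both columns of the transcript table. It was at 29.3 FPKM under FL and 54.0 under BM, a ratio of 1.85 and a relative log2 ratio of 0.88, under the 2-fold mark with the median gene as reference and over it (1.08) with the total without ribosomal protein and mitochondrial genes. Of the genes that reached 1 FPKM in a column, it exceeded 70.7% under FL and 86.0% under BM. Among 52 ABC family genes it had rank 5 under FL and rank 4 under BM. By start site, the transcripts that begin within 100 bases of the third start summed to 27.2 FPKM under FL and 48.0 under BM, or 93.0% and 88.8% of the gene. The transcript from the second start, Abcg2-201, was at 1.59 and 5.12 FPKM (5.44% and 9.47%). That from the first, Abcg2-209, was at 0.0371 and 0.140 FPKM. The third start thus carried most of the signal in both columns.

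**Figure D2:**
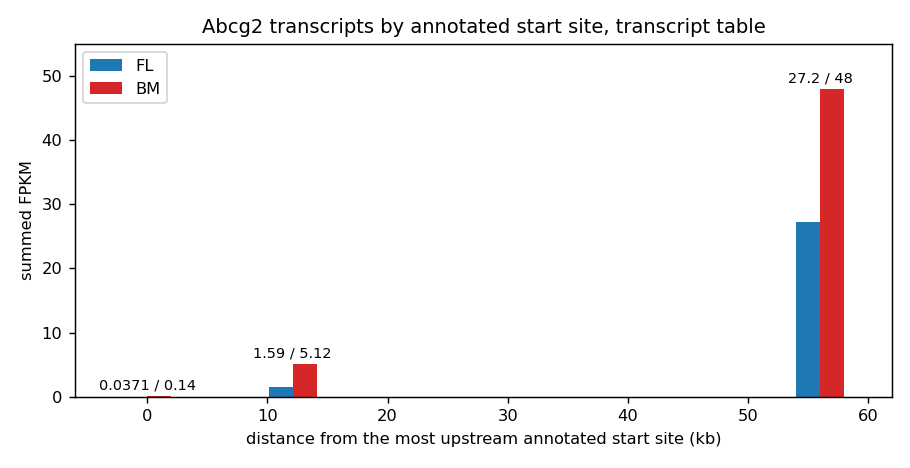
Summed FPKM (vertical axis) of Abcg2 transcripts that begin at each of the 3 annotated start sites, placed by distance in kb from the most upstream of them (horizontal axis), for the FL and BM columns of the transcript table (bars, values printed as FL / BM). The start at 56.0 kb holds 27.2 and 48.0 FPKM.

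Within the third start, 2 transcripts made up most of Abcg2. Abcg2-202 was at 16.9 FPKM under FL and 23.9 under BM, and Abcg2-207 at 8.72 and 20.9 FPKM. The share of Abcg2-202 in the gene was 57.7% in FL and 44.3% in BM, and that of Abcg2-207 29.8% and 38.6%. Overlapping transcripts share reads, so such shares are estimates, and no spread is known for them. Protein-coding transcripts together held 93.5% of Abcg2 in FL and 92.6% in BM.

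Abcc1, the multidrug resistance protein gene that exports glutathione conjugates, was at 14.7 FPKM under FL and 29.1 under BM of the transcript table. Its relative log2 ratio of 0.98 lay just under the 2-fold mark, and was 1.18 with the total without ribosomal protein and mitochondrial genes. The gene table column that matches this FL column had Abcc1 at 24.8 FPKM, so the ratio may not hold for the whole gene. Its main transcript Abcc1-201 was at 8.35 and 15.4 FPKM and Abcc1-204 at 3.57 and 9.70 FPKM.

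The organic anion and cyclic nucleotide exporters were closer to even. Abcc4 was at 6.63 FPKM under FL and 9.76 under BM (relative log2 ratio 0.54), mostly from Abcc4-201, with a share of 84.2% and 99.1%. Abcc5 was at 11.9 and 17.1 FPKM (0.51). In Abcc5 the main coding transcript Abcc5-202 was at 6.73 FPKM under FL and 5.94 under BM, while others were higher under BM, among them Abcc5-204 at 0.0306 and 1.79 FPKM, and the retained-intron transcript Abcc5-208 at 1.39 and 2.96 FPKM. Protein-coding transcripts held 85.1% of Abcc5 in FL and 70.4% in BM. With the most abundant transcript alone, the Abcc5 ratio turned to -0.14.

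**Figure D3:**
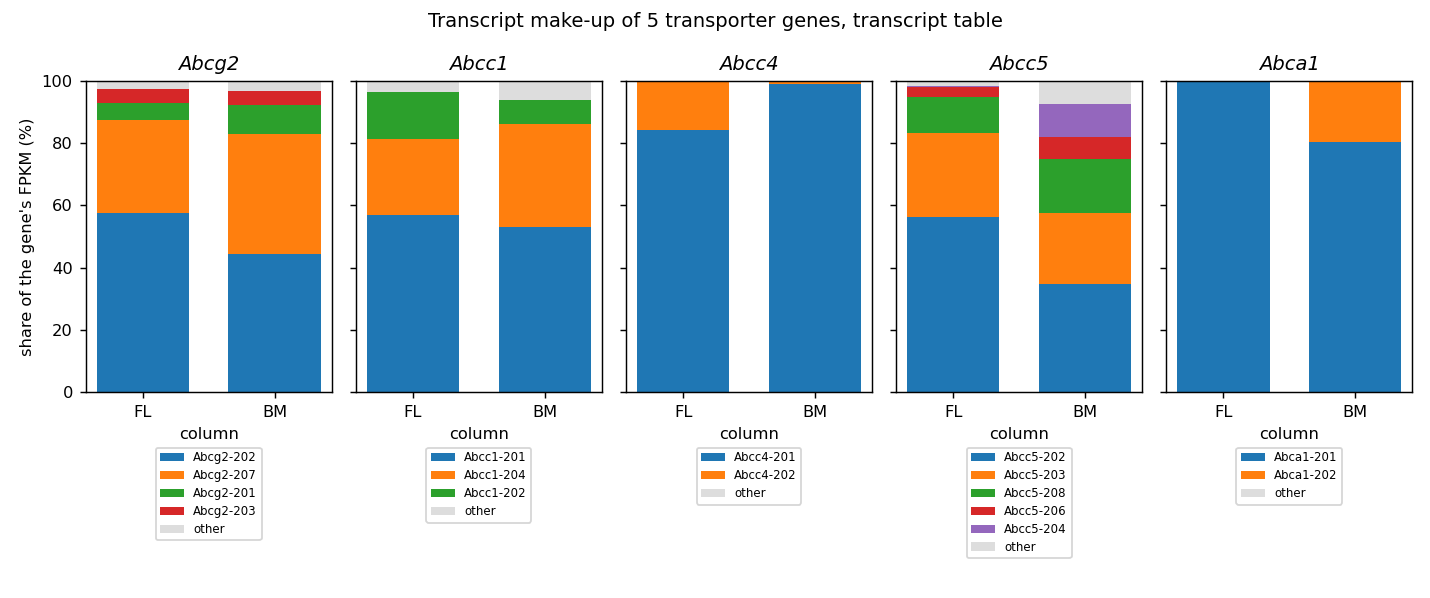
Share of each linked transcript in its gene's FPKM (vertical axis, %) in the FL and BM columns of the transcript table, for 5 transporter genes; transcripts under 4% in both columns are grey. The main transcript is the same in both columns for each of the 5 genes, and its share of Abcc5 is 56.4% in FL and 34.7% in BM.

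The cholesterol exporters differed little between these columns. Abca1, which loads cholesterol onto apolipoprotein A-I, was at 3.95 FPKM under FL and 4.23 under BM (relative log2 ratio 0.09). Its coding transcript alone was at 3.95 and 3.39 FPKM (-0.18), the rest of the BM value being the processed transcript Abca1-202 at 0.833 FPKM. Abcg1, which passes cholesterol to mature HDL particles, was at 24.5 and 21.9 FPKM (-0.16; 0.04 with the total without ribosomal protein and mitochondrial genes). Both columns thus held several times more Abcg1 than Abca1 per unit of length.

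**Figure D4:**
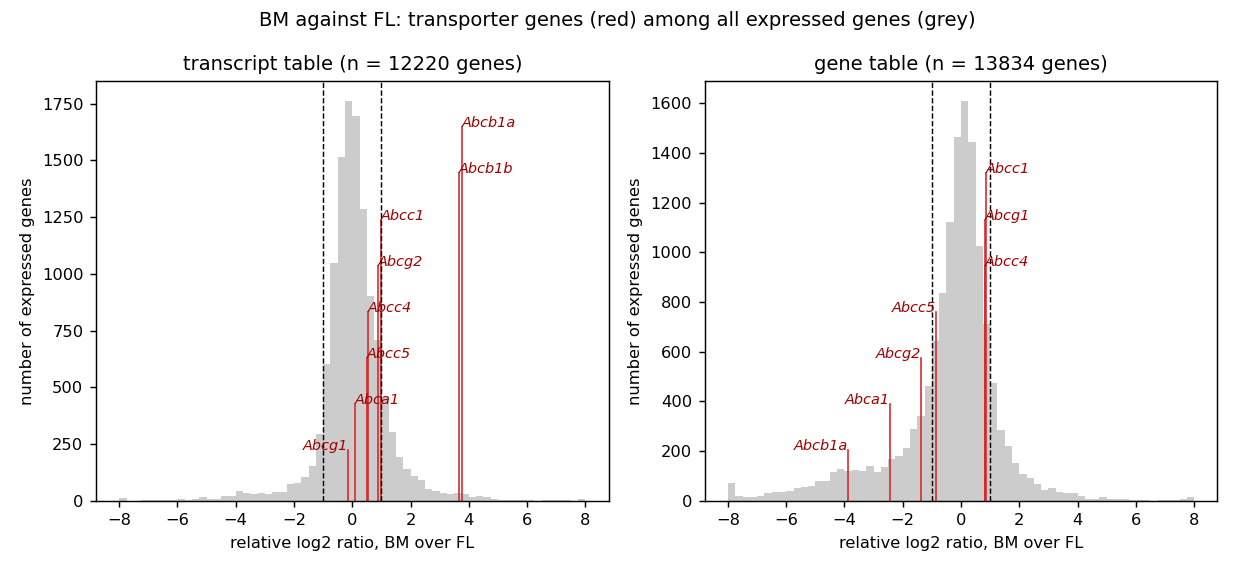
Relative log2 ratio of BM over FL (horizontal axis) for all expressed genes (grey histogram, number of genes on the vertical axis, values beyond 8 drawn at 8) in the transcript table (left) and the gene table (right). Red lines mark the transporter genes, with heights chosen only to separate the names, and dashed lines mark 2-fold; Abcb1a and Abcb1b lie at 3.77 and 3.65 on the left.

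In the gene table, the direction of several members was the opposite, and its BM column holds values like those of FL in the transcript table. The ratios of the 2 tables therefore share a set of values on opposite sides and are not independent. Of 7 expressed members 3 were at least 2-fold lower in BM and 0 were at least 2-fold higher, where 23.6% of 13834 expressed genes were lower and 12.3% higher. The median gene was shifted by 0.24 (log2), and ratios here are relative to it; without centring, 3 members (Abcc1, Abcc4 and Abcg1) were at least 2-fold higher, and over all genes 2376 were higher and 2826 lower in place of 1708 and 3270. The members' median was -0.85, beside -0.07 for all expressed genes.

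Abca1, Abcg2 and Abcb1a were the lower members. Abca1 was at 19.3 FPKM under FL and 4.10 under BM of the gene table, 4.70-fold higher in FL (relative log2 ratio -2.45). Abcg2 was at 67.6 and 30.5 FPKM, 2.21-fold higher in FL (-1.38), and was the most abundant of 52 ABC family genes in that FL column. Abcb1a was at 1.14 FPKM in FL and listed at 0 in BM, and Abcb1b, below 1 FPKM in both columns, was at 0.903 and 0.539 FPKM. Endothelial cells of several tissues are known to carry Abcg2 and Abcb1a, and macrophages Abca1. All 10 endothelial and all 10 stromal markers were lower in BM in the same comparison, with medians of -5.00 and -6.55. Of 10 macrophage markers 7 were lower and 3 higher (summed levels of 710 FPKM under FL and 280 under BM, none at 0). Other sets went up: 9 of 10 neutrophil and monocyte markers were higher in BM and 0 lower (summed 135 and 656 FPKM). Ctsg and Ly6c2 were at 0 in FL. Of 9 erythroid markers 6 were higher and 0 lower (91.1 and 363 FPKM). Of 6 expressed hepatocyte markers 2 were higher and 1 lower, and of 8 megakaryocyte markers 4 were higher and 3 lower. The part of these cells in the differences was not tested, and in such bulk RNA a changed number of cells and a changed level per cell cannot be told apart.

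The other members of the gene table were within 2-fold of the median gene. Abcc5 was at 19.5 FPKM under FL and 12.8 under BM (-0.85). Abcc1 was at 11.6 and 24.8 FPKM (0.86), Abcc4 at 3.26 and 6.86 FPKM (0.81) and Abcg1 at 12.1 and 25.5 FPKM (0.83), each about as far below the 2-fold mark. In raw FPKM these 3 were 2.15-, 2.11- and 2.10-fold higher in BM.

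Across all 4 columns, the P-glycoproteins were the lowest members in 3 columns and Abcg2 the highest in every column. Under FL of the transcript table the order was Abcg2, Abcg1, Abcc1, Abcc5, Abcc4, Abca1, Abcb1b and Abcb1a; in BM of that table it was Abcg2, Abcc1, Abcg1, Abcc5, Abcc4, Abcb1b, Abca1 and Abcb1a. Abcb1b thus stood above Abca1 in BM of the transcript table only. With no replicate spread, whether neighbours in these orders differ is not known.

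Of the other ABC family genes, 44 were measured and 23 were expressed in the transcript table, with 5 at least 2-fold higher in BM, 2 lower and a median of -0.10; over all expressed genes 13.3% were higher and 8.82% lower. The largest ratios among those at a mean of 5 FPKM or more were of Tap1 and Tap2, the peptide pumps of MHC class I loading, at 20.6 and 22.2 FPKM under FL and at 73.4 and 66.4 under BM, and of Abcg3, a rodent relative of Abcg2, at 5.63 and 13.1 FPKM. The smallest were of the mitochondrial or organelle transporter genes Abcb6 (12.5 and 6.28 FPKM) and Abcb8 (31.0 and 20.4 FPKM) and of Abcf2 (65.2 and 33.9 FPKM), a family member without membrane spans. The 3 highest in FL were also of that soluble kind: Abcf1, at 130 FPKM, Abcf2, and the ribosome recycling factor gene Abce1, at 51.2 FPKM. Of the 44, 25 were expressed in the gene table, 9 higher and 4 lower, with a median of 0.33, against 12.3% and 23.6% of all expressed genes. The lower ones were Abcc9 (8.76 and 0.0676 FPKM), Abca9 (4.29 and 0.242 FPKM), Abcd2 (4.10 and 0.362 FPKM) and Abcd4. Among those at a mean of 5 FPKM or more, Abcb4 had the largest ratio there, at 0.152 FPKM under FL and 21.3 under BM, followed by Abca2 (2.65 and 20.6 FPKM) and Tap2 (3.68 and 23.3 FPKM). The smallest at that mean level were of the lysosomal transporter gene Abcd4 (7.12 and 4.15 FPKM), the peroxisomal Abcd3 (11.6 and 10.4 FPKM) and Abce1 (43.1 and 53.3 FPKM).

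Genes of the sterol circuit around Abca1 and Abcg1 were lower or even under BM in the transcript table, where 4 of 10 expressed genes were lower, 6 within 2-fold and 0 higher, with a median of -0.45; over all expressed genes 8.82% were lower and 13.3% higher. The liver X receptor gene Nr1h2 was at 44.6 FPKM under FL and 60.8 under BM, and its relative Nr1h3, prominent in macrophages and liver, at 5.97 and 2.70 FPKM. The partner receptor gene Rxra was at 11.9 and 4.79 FPKM, and the HDL receptor gene Scarb1 at 49.0 and 22.1 FPKM. Apoe, which encodes a cholesterol carrier, was the most abundant, at 532 and 360 FPKM, and Apoa1 was at 3.70 and 0.178 FPKM. All 10 macrophage markers were lower in that column (summed 267 and 7.06 FPKM), as were 5 of 6 expressed hepatocyte markers. The 8 hepatocyte markers summed to 41.6 and 13.3 FPKM, with Fgb and Serpina1a at 0 in BM. Apoa1 is counted both among the sterol genes and among the hepatocyte markers. The part of such cells in these differences was not tested. Of 11 sterol genes expressed in the gene table, 2 were lower and 2 higher, with a median of -0.09, against 23.6% and 12.3% of all expressed genes. The lower ones were Apoe (1330 and 557 FPKM) and Lcat (1.44 and 0.787 FPKM). The higher ones were Nr1h3 (1.49 and 6.05 FPKM) and Apoa1 (1.43 and 3.88 FPKM).

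Regulators of the hypoxia and xenobiotic responses, known to act on Abcg2 and the P-glycoprotein genes, were nearly level in the transcript table. Of 6 expressed genes 5 were within 2-fold and 1, Epas1, was lower (1.05 and 0.405 FPKM), with a median of -0.08, where 8.82% of all expressed genes were lower. Hif1a, the hypoxia factor gene, was at 14.8 FPKM under FL and 13.8 under BM, its partner Arnt at 20.6 and 19.4 FPKM, and Nfe2l2, which drives antioxidant genes, at 27.9 and 31.8 FPKM. The xenobiotic receptor genes Nr1i2 and Nr1i3 were below 0.1 FPKM in both columns. Of 7 regulators expressed in the gene table, 4 were lower under BM and 0 higher: Epas1, a hypoxia factor gene abundant in endothelium, at 49.3 and 1.09 FPKM, the dioxin receptor gene Ahr at 15.9 and 2.25 FPKM, Hif1a at 35.3 and 15.3 FPKM, and Pparg at 1.74 and 0.637 FPKM. Over all genes expressed there, 23.6% were lower. Abcg2 and Abcb1a were lower in that column, as were the endothelial and stromal markers. The part of such cells, or of these regulators, in the transporter values was not tested.

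**Figure D5:**
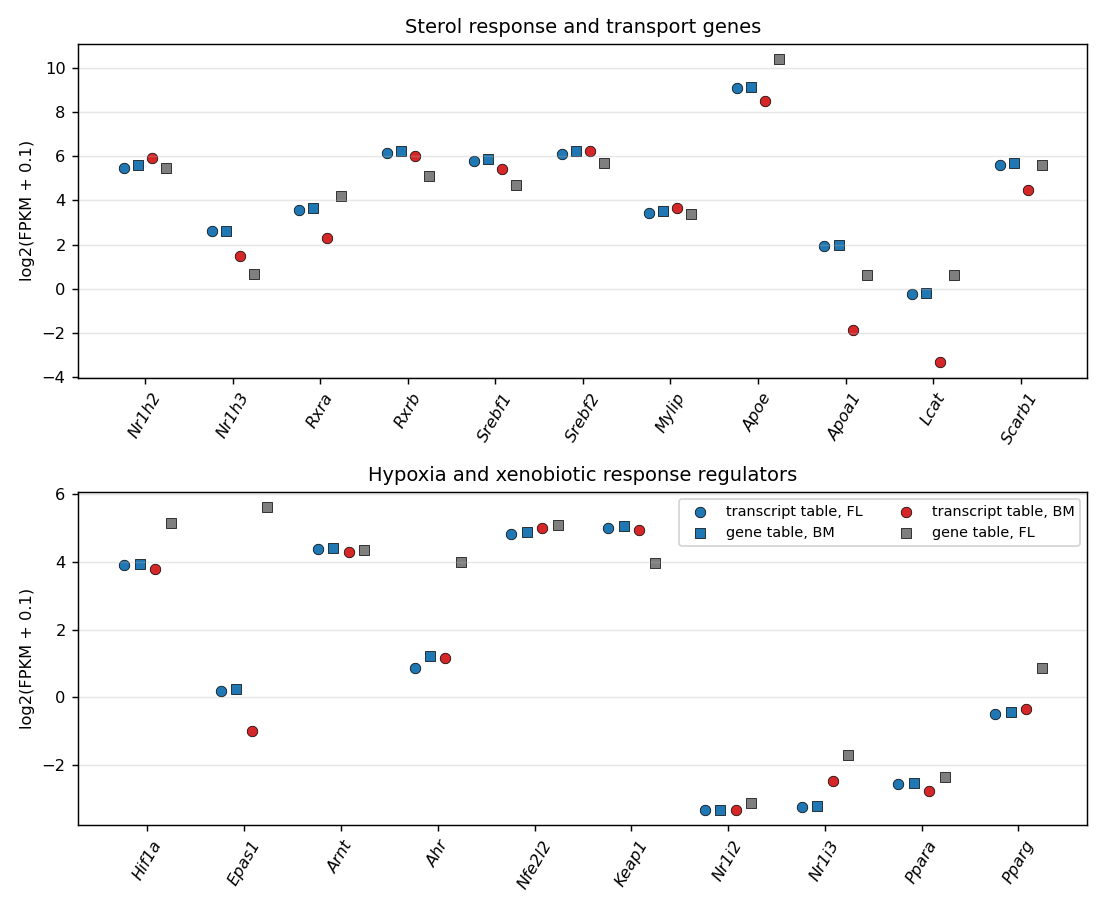
Levels, as log2(FPKM + 0.1), of the sterol circuit genes (top) and of the hypoxia and xenobiotic regulators (bottom) in the 4 deposited columns, with symbols as in the plot of transporter levels. Grey squares (FL of the gene table) stand far above the other columns for Epas1 and Ahr, at 49.3 and 15.9 FPKM.

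The genes most like Abcg2 in pattern were sought among 8287 genes at a mean of 5 FPKM or more in both tables, by the Euclidean distance between log2 profiles over the 4 columns, each centred on its own mean. The nearest were Rnf13 at a distance of 0.06, and Adamts10 and Rexo5 at 0.08 each. Rnf13 was at 15.7 FPKM under FL and 6.91 under BM of the gene table and at 6.40 and 12.4 FPKM in the transcript table. With 4 columns, of which 2 hold like values, such closeness is a description only. Abca1 was below the level set for this search.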

How the data were processed

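HSC RNA had been selected for poly(A), fragmented, made into NEBNext Ultra libraries and sequenced in paired-end mode, per the labels' protocol. The authors deposited FPKM values in 2 tables, for 37820 genes and 87641 transcripts, each read as the authors' mean over libraries. The submitters' processing notes name TopHat, Cufflinks, featureCounts, Subread, edgeR and mm9, without role or order. The column headed BM was assigned to the adult samples by its header and FL to fetal liver from the protocol alone.

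Identifiers were matched to GENCODE M21 for symbols; 76507 transcripts were linked and summed to 28009 genes. Unlinked transcripts held 10.4% of FPKM in FL and 10.9% in BM, so a sum can be too low. Ratios used a pseudocount of 0.1 FPKM, an expressed level of 1 FPKM, centring on the median gene and a 2-fold mark; the ratio and the call were tested on simulated data. Members and lists were chosen with earlier results of these data known. Named were all members, the 3 highest other ABC genes of a column and those with the 3 largest and 3 smallest ratios at a mean of 5 FPKM or more, up to 4 members of a list by level, and the 3 genes nearest to Abcg2; other list members, Abcb4 in the transcript table among them, were named after their values were seen. The sterol list leaves out 2 genes that are not reported here. Alternatives were other pseudocounts, filters, scalings and the most abundant transcript alone. Python 3.11.15, numpy 2.4.6, pandas 2.3.3 and matplotlib 3.10.9 were used.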

Additional observations from a re-analysis of the deposited data

How the results depend on the processing

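Of 8 transcript-table members, the number at least 2-fold higher in BM was 2, and 1 where 5 FPKM was required, since Abcb1a is below that level, and 4 with the total without ribosomal protein and mitochondrial genes, where Abcg2 and Abcc1 joined. Of the gene table's members, 0 were higher, and 3 without centring. The number lower was 0 and 3 under the main setting and did not move by over 1.5 times under any alternative run. Over all genes, 1621 of the transcript table were higher and 1078 lower. With the total without ribosomal protein and mitochondrial genes, 2190 were higher and 840 lower. With no filter on low values 1891 were lower, and at 5 FPKM or more 883 were higher and 616 lower. In the gene table the lower genes numbered 3270, and 5936 with no filter and 2018 at 5 FPKM. No member at least 2-fold apart changed sign. The members' median log2 ratio of BM in the gene table to FL in the transcript table was 0.06. With the most abundant transcript alone it was 0.58. No paired analysis was possible because no column carries a replicate number, and for the same reason no replicate could be left out. FPKM keeps no depth, so the precision of low values, such as those of Abcb1a, is unknown.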

Other observations

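Genes that work beside Abcb10 and the Abcc transporters were also measured. Of 7 haem pathway genes 4 were at least 2-fold lower in BM of the transcript table and 0 higher, with a median of -1.05, where 8.82% of all expressed genes were lower and 13.3% higher. Of the same 7 in the gene table, 0 were lower and 1, Fech, was higher (12.9 and 39.8 FPKM), with a median of 0.13, where 23.6% of all expressed genes were lower and 12.3% higher. In the transcript table, the haem-degrading enzyme gene Hmox1 was at 84.0 FPKM under FL and 14.1 under BM, the ferrochelatase gene Fech at 25.5 and 12.3 FPKM, and the mitochondrial glycine carrier gene Slc25a38 at 33.5 and 11.8 FPKM. The erythroid synthase gene Alas2 was at 1.25 FPKM in FL and listed at 0 in BM, while the mitochondrial iron importer gene Slc25a37 was at 11.4 and 15.8 FPKM. All 9 measured erythroid markers were lower in the same column (summed 620 and 38.5 FPKM). In the gene table, 6 of the 9 were higher in BM and 0 lower (summed 91.1 and 363 FPKM). Alas2 is counted both among the haem genes and among these markers. The part of erythroid cells in these differences was not tested.

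Genes for glutathione synthesis and conjugation, which supply substrates of Abcc1, were within 2-fold for 7 of 8 expressed members in the transcript table, with 1 lower, 0 higher and a median of -0.60, where 8.82% of all expressed genes were lower and 13.3% higher. Of 9 expressed in the gene table, 0 were lower and 2 were higher, Gss (11.7 and 29.7 FPKM) and Gstm1 (15.8 and 40.0 FPKM), the median being 0.71, where 12.3% of all expressed genes were higher and 23.6% lower. Gclc, the catalytic subunit gene of the first enzyme of glutathione synthesis, was at 15.6 FPKM under FL and 18.4 under BM of the transcript table. The lower member in the transcript table was Mgst3, a microsomal glutathione transferase gene, at 23.5 and 6.10 FPKM. Gstp1 was at 0.00123 FPKM in FL of the transcript table but at 131 FPKM in BM of the gene table, the column that matches it for most genes.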
